A study of Mus musculus with 6 samples.

Results

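The laminins, nidogens and perlecan are the glycoproteins and the large proteoglycan that, together with collagen IV, build the basement membrane, the sheet of matrix that cells rest on. The 9 genes described here were taken by their symbol from a table of 19642 distinct gene symbols: the laminin alpha chain genes Lama2, Lama3, Lama4 and Lama5, the beta chain gene Lamb2, the gamma chain gene Lamc1, the nidogen genes Nid1 and Nid2, and Hspg2, which encodes perlecan. Each symbol matched 1 row. The RNA came from primary cultures of mouse mesangial cells, which hold the capillary loops of the kidney glomerulus together. There were 3 Control libraries and 3 libraries of cells given TGF-β1 (transforming growth factor beta 1, a secreted driver of scarring) at 10 ng/ml for 72 h. Both groups were grown at passages 3 to 6 in high-glucose medium (25.5 mM) with 20% foetal bovine serum, so the Control cells were high-glucose cells too. Neither the number of animals behind the cells nor whether the replicates were separate cultures is given in the sources used here, and the p-values therefore measure only the spread between these libraries.

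A laminin molecule is a cross of 1 alpha, 1 beta and 1 gamma chain that assembles inside the cell. Outside it, laminins bind to each other and to receptors on the cell surface, the integrins and dystroglycan, and so start a basement membrane. The nidogens link the laminin gamma 1 chain to collagen IV and to perlecan, whose heparan sulphate chains bind growth factors. In the glomerulus, the chains encoded by Lama5, Lamb2 and Lamc1 form the laminin of the mature filtration barrier, and mesangial matrix holds laminins with the alpha 4 and alpha 5 chains and the beta 1 and beta 2 chains.

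Values are FPKM, the fragments of a gene per kilobase of transcript and per M (mega) mapped fragments, so levels of different genes can be set side by side. A change is a difference between group means of log2(FPKM + 1), a scale on which low genes appear to change less than they do, and a gene was called changed at a limma adjusted p under 0.05 over the 11898 rows whose mean FPKM reached 1. The libraries held an estimated 10.1 to 11.1 M mapped fragments. Of all tested rows, 48.1% were called, 24.5% higher and 23.6% lower, so a call by itself was common. Of the 8 mesangial markers, Vim, Acta2 and Pdgfrb were well expressed, while Itga8, Des and Thy1 were at most 0.550 FPKM in any library. Acta2 rose by 1.96 (limma adjusted p = 8.64e-05) and Vim by 0.65 (limma adjusted p = 0.00696) on the log2 scale. Pdgfrb fell (-0.34, limma adjusted p = 0.0396), a call held in 1 of 6 fits without 1 library. Gata3 was low, at 0.756 to 2.42 FPKM in Control and 0.846 to 1.26 FPKM with TGF-β1. Cspg4, under the filter, rose from a mean of 0.0735 to 1.21 FPKM (limma adjusted p = 0.000951 without the filter). Of 8 epithelial markers the 3 that were tested fell (summed level of the list 255 to 319 FPKM in Control, 34.9 to 39.8 with TGF-β1), while Krt18 and Krt19, under the filter, rose from means of 0.279 and 0.156 FPKM to 1.57 and 1.06 FPKM (limma adjusted p = 0.00143 and 0.00563 without the filter). The 3 that fell were well expressed in Control: Cdh16 (114 to 146 FPKM), Pax8 (108 to 137 FPKM) and Cldn2 (32.0 to 33.5 FPKM). Lrp2, under the filter, fell from a mean of 1.43 to 0.230 FPKM (limma adjusted p = 0.00369 without the filter). Cdh1 and Krt8 were near 0 in both groups. Of 6 macrophage markers 3 were tested and 2 fell, Cd14 (78.8 to 104 FPKM in Control) and Csf1r (5.52 to 7.37 FPKM in Control). Cd68 was not called (limma adjusted p = 0.393), and Itgam and Lyz2 were at most 0.359 and 0.0811 FPKM in any library. The summed level of that list was 87.0 to 114 FPKM in Control and 9.03 to 11.3 FPKM with TGF-β1. Most of that sum was Cd14, with means of 94.3 FPKM in Control and 7.71 FPKM with TGF-β1. Ptprc was listed at 0 in all Control libraries. Of 4 podocyte markers 3 were tested and all 3 fell (19.6 to 24.9 against 12.5 to 13.7 FPKM), with Nphs1 at most 0.398 FPKM in any library. None of the 6 endothelial markers passed the filter (0.704 to 0.799 against 0.915 to 1.53 FPKM). The part of these shifts in the results below was not tested, and fewer cells of a type cannot be told apart from less RNA per cell.

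Promoter sequences were at hand for 5 of the 9 genes. The 4 shown belong to genes over the filter: Lama5 and Lamb2, which fell, Nid1, which fell slightly, and Hspg2, which split by library number. Each is the 250 bases before the annotated start in RefSeq on GRCm38.p6, 5′ to 3′ on the gene's strand. These are chr2:180225860-180226109 on the minus strand for Lama5, chr9:108479612-108479861 on the plus strand for Lamb2, chr13:13437352-13437601 on the plus strand for Nid1 and chr4:137468553-137468802 on the plus strand for Hspg2. Capitals mark CAGAC or its reverse complement GTCTG, the short SMAD motif, and GGGCGG or its reverse complement CCGCCC, the GC box.
Lama5: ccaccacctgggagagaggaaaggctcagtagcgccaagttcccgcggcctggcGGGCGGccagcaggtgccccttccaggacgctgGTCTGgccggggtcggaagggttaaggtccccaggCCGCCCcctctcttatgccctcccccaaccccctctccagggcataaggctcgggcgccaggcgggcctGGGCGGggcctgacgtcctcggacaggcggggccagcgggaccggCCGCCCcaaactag
Lamb2: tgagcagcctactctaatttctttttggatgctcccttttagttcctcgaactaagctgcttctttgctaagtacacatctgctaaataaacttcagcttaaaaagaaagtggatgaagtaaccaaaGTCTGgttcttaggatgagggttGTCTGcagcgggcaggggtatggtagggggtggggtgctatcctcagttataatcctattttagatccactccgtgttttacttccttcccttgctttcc
Nid1: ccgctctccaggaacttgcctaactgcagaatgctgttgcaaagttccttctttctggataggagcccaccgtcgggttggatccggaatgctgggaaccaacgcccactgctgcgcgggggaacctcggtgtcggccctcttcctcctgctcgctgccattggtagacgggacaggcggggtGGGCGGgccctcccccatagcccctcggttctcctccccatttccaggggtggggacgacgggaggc
Hspg2: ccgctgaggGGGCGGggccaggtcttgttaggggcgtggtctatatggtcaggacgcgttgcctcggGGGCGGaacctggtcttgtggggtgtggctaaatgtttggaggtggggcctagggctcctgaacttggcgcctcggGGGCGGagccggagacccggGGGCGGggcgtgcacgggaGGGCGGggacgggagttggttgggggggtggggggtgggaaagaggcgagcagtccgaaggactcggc
The Lama5 window held 1 SMAD motif and 4 GC boxes, the Lamb2 window 2 SMAD motifs and 0 GC boxes, the Nid1 window 0 and 1, and the Hspg2 window 0 and 5. Lama2, whose window is not shown, held 1 SMAD motif and 0 GC boxes. At least 1 SMAD motif was present in 42.2% and at least 1 GC box in 32.7% of 32851 such windows, so having a match is not rare for either. The share of windows with several copies is not given here. The Hspg2 and Lama5 windows were also GC rich, at 70.0% and 72.4% against a median of 52.4%, while the Lamb2 window was at 43.6%. A match is only a run of letters, and neither motif separated Lama5, Lamb2 and Nid1, which fell, from Hspg2. No sequence was at hand for Nid2 and Lamc1, which also fell.

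Of the 9 genes, 6 passed the filter on low values, and 5 of them fell: Nid2, Lamb2, Lama5, Lamc1 and Nid1. None was called higher, and Hspg2 was not called. Over all tested rows, 23.6% were called lower and 24.5% higher. The median change of the 6 was -0.73 against -0.02 over all tested rows. The other 3 genes, Lama2, Lama3 and Lama4, were at most 0.284 FPKM in any library and were not called in the same test without the filter, in which 30.5% of 19730 rows were called. All Control libraries lay above all TGF-β1 libraries in 8 of the 9 genes, a pattern found in 23.6% of all rows and in 29.5% of tested ones. The reverse pattern, found in 29.9% of tested rows, occurred in 0 of the 9, and the groups overlapped for Hspg2. Without both replicate 2 libraries, the same 5 genes were called lower and Hspg2 was called higher.

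**Figure D1:**
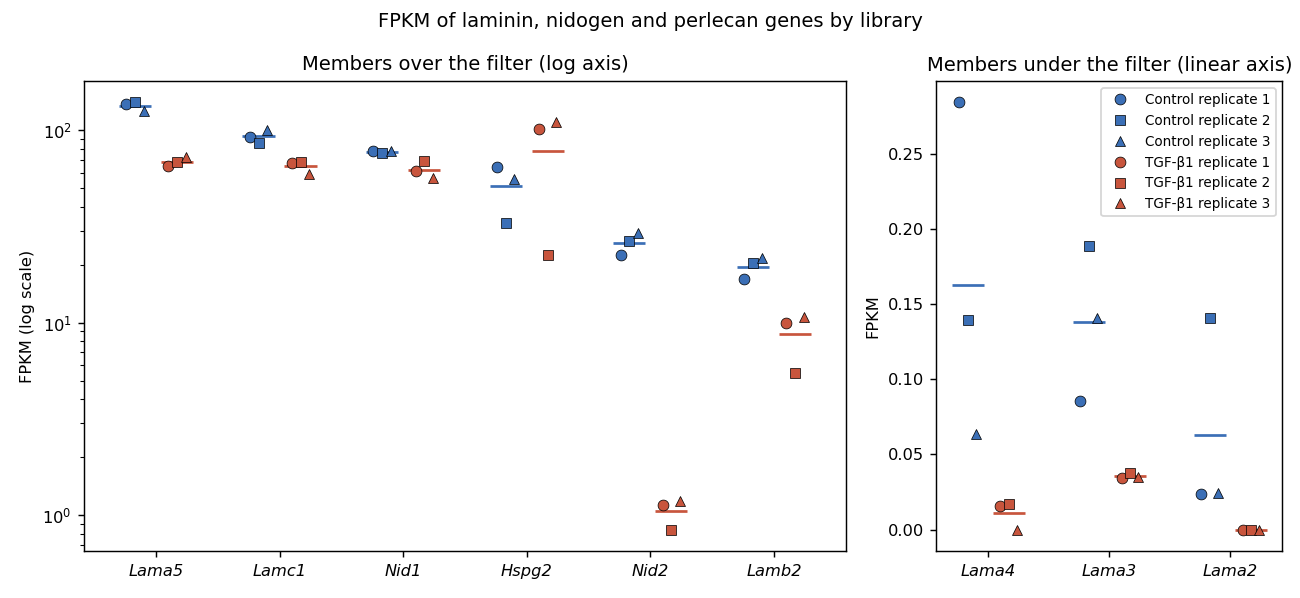
FPKM of each gene in each library, on a log axis for the 6 genes over the filter and on a linear axis for the 3 under it; circles, squares and triangles are replicates 1, 2 and 3, blue is Control, red is TGF-β1, and bars are group means. The groups lie apart for all genes but Hspg2, whose replicate 2 squares lie lowest in both groups.

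Lama5 encodes the alpha 5 chain, the main alpha chain of mature kidney basement membranes. It was the most abundant of the 9 genes in Control cells, at 136, 139 and 125 FPKM, and stood at 64.7, 68.2 and 72.7 FPKM with TGF-β1. The groups were far apart and the libraries within each were close. The change was -0.95 ± 0.08 (SE, n = 3 per group; limma adjusted p = 0.000273), a 1.94-fold lower mean, and it stayed called with any 1 library left out. The row of Lama5 names a processed transcript of 734 nt although its longest coding transcript has 11388 nt, and that of Lamc1 names a transcript of 1447 nt beside a longest one of 7622 nt. Both values depend on how fragments were shared among transcripts.

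The other alpha chains were almost absent. Lama4, the alpha 4 chain of mesangial and vascular laminins, read 0.284, 0.140 and 0.0635 FPKM in Control and 0.0156, 0.0169 and 0 with TGF-β1. With the FPKM of 1 fragment on its transcript, these are about 18, 9 and 4 fragments against 1, 1 and 0. Every Control library was higher, but the difference was not called (limma adjusted p = 0.0976). Without Control replicate 3 it was (limma adjusted p = 0.0411), and with a pseudocount of 0.01 as well (limma adjusted p = 0.0405). Lama3, the alpha 3 chain of epithelial laminins, read 0.0857, 0.189 and 0.140 FPKM in Control and 0.0345, 0.0373 and 0.0349 with TGF-β1. On a transcript of 5483 nt, on which its values came out whole, that is about 24 fragments in all Control libraries against 6, and the difference was not called (limma adjusted p = 0.0758), except without Control replicate 1 (limma adjusted p = 0.0205). Lama2, the alpha 2 chain best known from muscle, read 0.0234, 0.141 and 0.0241 FPKM in Control and was listed at 0 in the 3 TGF-β1 libraries (limma adjusted p = 0.290). On a transcript of 4062 nt, on which its values came out whole, the Control values are about 8 fragments in all. On the transcript of 9710 nt named in its row they would be 2.47, 14.8 and 2.47 fragments. At this depth the 3 genes can be described but hardly compared.

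Lama5 accordingly made up nearly all of the alpha chain signal. In Control its share of the summed FPKM of the 5 alpha chain genes was 99.7% ± 0.085 (SD, n = 3), and after TGF-β1 it was 99.7% ± 0.031 (SD, n = 3; two-sided exact permutation p = 0.8). The sum of the 4 alpha chain genes described here was 134 ± 7.48 FPKM in Control and 68.6 ± 3.99 FPKM with TGF-β1 (two-sided exact permutation p = 0.1, the smallest that 3 against 3 allow).

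Lamb2 encodes the beta 2 chain, whose loss in people and mice causes nephrotic syndrome. It read 16.8, 20.3 and 21.6 FPKM in Control and 9.92, 5.48 and 10.6 FPKM with TGF-β1. TGF-β1 replicate 2 was the lowest library, and the groups did not overlap. The change was -1.13 ± 0.24 (SE, n = 3 per group; limma adjusted p = 0.00944), a 2.25-fold lower mean, and -0.83 without both replicate 2 libraries (limma adjusted p = 0.0185).

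Lamc1 encodes the gamma 1 chain, which is shared by most laminins. Its levels were 91.5, 85.6 and 100 FPKM in Control and 67.2, 68.3 and 59.2 FPKM with TGF-β1. Again no library of one group reached into the other. The change of -0.51 ± 0.10 (SE, n = 3 per group; limma adjusted p = 0.00644), or a 1.43-fold lower mean, was smaller than that of Lama5. Lamb2 and Lamc1 summed to 112 ± 8.68 FPKM in Control and 73.6 ± 3.63 FPKM with TGF-β1 (SD, n = 3 each; two-sided exact permutation p = 0.1).

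Not all laminin chains fell. Of 4 other chain genes listed with the pathway, 1 passed the filter, Lamb1, and it rose. Lamb1, the beta 1 chain that pairs with most of the same partners as beta 2, read 94.3, 88.1 and 82.1 FPKM in Control and 111, 121 and 107 FPKM with TGF-β1. The change of 0.35 ± 0.09 (SE, n = 3 per group; limma adjusted p = 0.0181) was not a firm call. It was lost without Control replicate 2 (limma adjusted p = 0.0516), without TGF-β1 replicate 1 (limma adjusted p = 0.0559) and without both replicate 2 libraries (limma adjusted p = 0.0911). It was also lost when the libraries were rescaled to a common sum over all rows (limma adjusted p = 0.0803) or over coding rows (limma adjusted p = 0.158).

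Lamb3, the beta 3 chain that joins alpha 3 in the laminin of epithelial anchorage, lay just under the filter and rose from 0.0657, 0.0658 and 0.135 FPKM to 1.62, 2.02 and 1.58 FPKM (change 1.33; limma adjusted p = 0.000278 in the test without the filter). Its partner chain gene Lama3 had 2 fragments in each TGF-β1 library and 5, 11 and 8 in Control. Lama1, the alpha 1 chain of embryonic laminins, went from 3, 4 and 2 fragments to 14 in each TGF-β1 library (limma adjusted p = 0.0230 without the filter), a call that was lost with a pseudocount of 0.01 (limma adjusted p = 0.0516) and without the mean-variance trend (limma adjusted p = 0.0687). Lamc3, the gamma 3 chain, reached at most 0.109 FPKM in the Control libraries and is listed at 0 in all TGF-β1 libraries (limma adjusted p = 0.194). With a pseudocount of 0.01 it was called lower (limma adjusted p = 0.0423).

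**Figure D2:**
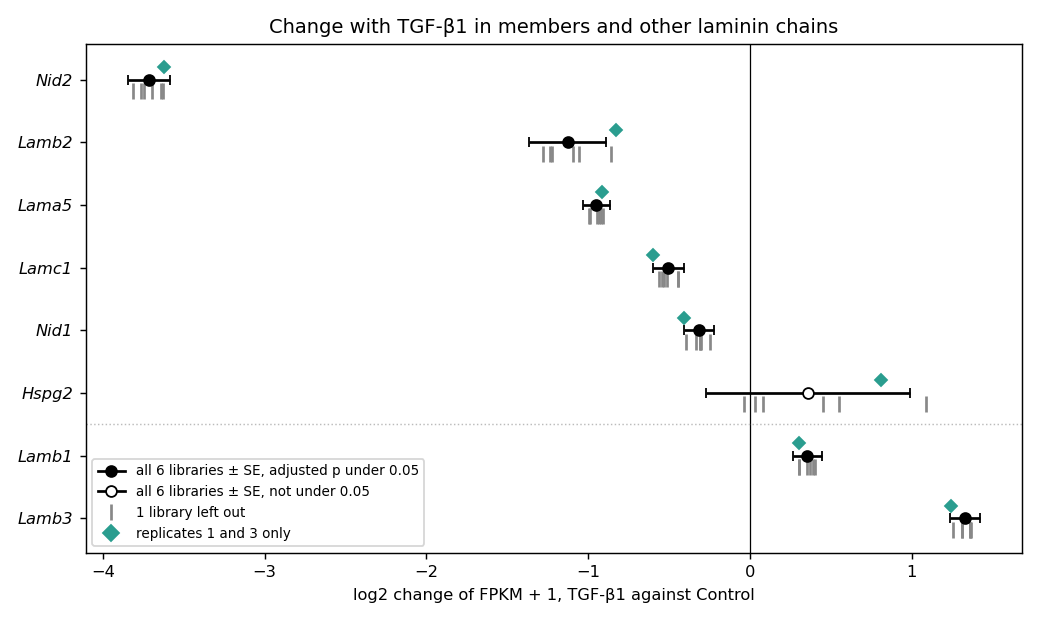
Change of each gene on the log2(FPKM + 1) scale, TGF-β1 against Control; black circles with bars are the change ± SE over all 6 libraries (filled when the limma adjusted p was under 0.05), grey ticks leave out 1 library each, diamonds use replicates 1 and 3 only, and Lamb3 comes from the test without the filter. Nid2 lies farthest left at -3.72, Lamb3 farthest right at 1.33, and the ticks of Hspg2 run from -0.04 to 1.09.

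Because ratios within a library do not depend on scaling between libraries, chains were also set against each other. A further 3 quantities were chosen after the values had been seen: the share of Lamb2 in Lamb1 plus Lamb2 (leaving out the low Lamb3), the sum of Lamb1 and Lamb2, and the ratio of Lama5 to Lamc1. Lamb2 made up 15.1%, 18.7% and 20.8% of Lamb1 plus Lamb2 FPKM in Control and 8.23%, 4.32% and 9.03% with TGF-β1 (means 18.2% ± 2.88 and 7.19% ± 2.52, SD, n = 3 each; two-sided exact permutation p = 0.1). The beta chain balance therefore lay further towards beta 1 in every TGF-β1 library. The sum of both genes was 108 ± 3.77 FPKM in Control and 122 ± 4.65 FPKM with TGF-β1 (two-sided exact permutation p = 0.1), but this difference of 14.0 FPKM shrank to 5.31 FPKM with a common sum over all rows and turned to -1.46 FPKM with a common sum over coding rows. No direction can be given for that sum. The log2 ratio of Lama5 to Lamc1 was 0.57, 0.70 and 0.31 in the Control libraries. After TGF-β1 it was -0.05, 0.00 and 0.30, so the groups were apart by only 0.02 at their nearest libraries (two-sided exact permutation p = 0.1).

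Nid2, the gene of nidogen 2, changed most among the 6 genes over the filter. It read 22.4, 26.5 and 29.2 FPKM in Control and 1.13, 0.843 and 1.18 FPKM with TGF-β1. That is about 1160, 1372 and 1476 fragments against 58, 40 and 60, so even the lowest value rests on 40 fragments. The change was -3.72 ± 0.13 (SE, n = 3 per group; limma adjusted p = 1.16e-05), a 24.8-fold lower mean. It was called under all 16 alternative settings, with adjusted p from 1.03e-05 to 0.00113.

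Nid1, the gene of nidogen 1, fell far less. Its levels were 77.8, 75.5 and 78.1 FPKM in Control and 60.9, 69.1 and 56.0 FPKM with TGF-β1. The 3 Control libraries lay very close together, and all TGF-β1 libraries lay lower. The change of -0.31 ± 0.09 (SE, n = 3 per group; limma adjusted p = 0.0337) was a 1.24-fold lower mean. That call was lost in 5 of 6 fits without 1 library: without Control replicate 1, 2 or 3 (limma adjusted p = 0.0846, 0.0715 and 0.0676) and without TGF-β1 replicate 1 or 3 (limma adjusted p = 0.104 and 0.103).

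The 2 nidogens therefore parted. The log2 ratio of Nid2 to Nid1 was -1.80, -1.51 and -1.42 in the Control libraries, and after TGF-β1 it was -5.75, -6.36 and -5.56. Its mean went from -1.58 ± 0.20 to -5.89 ± 0.41 (SD, n = 3 each), a difference of -4.32 (two-sided exact permutation p = 0.1, the smallest possible), and of -4.05 without both replicate 2 libraries. Nid2 overlaps 2700060E02Rik on the opposite strand and Lamc1 overlaps Gm8818, and whether the reads were assigned by strand is not given in the sources used here; Nid1, Lama5, Lamb2 and Hspg2 overlap no annotated gene.

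**Figure D3:**
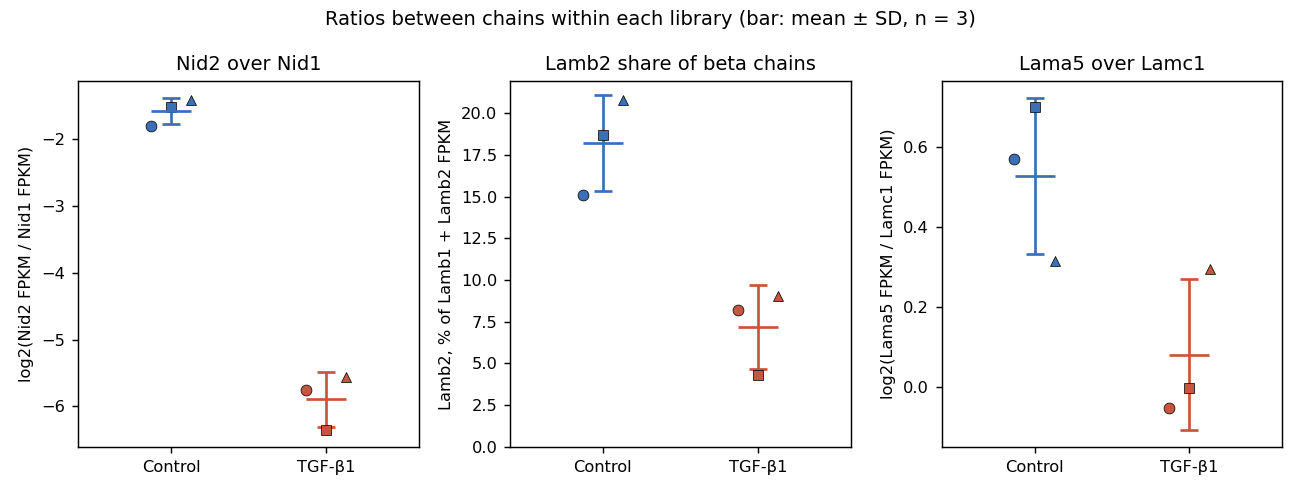
The log2 ratio of Nid2 to Nid1 FPKM, the percent of Lamb2 in Lamb1 plus Lamb2 FPKM, and the log2 ratio of Lama5 to Lamc1 FPKM in each library, by group; bars are mean ± SD of 3 libraries and symbols mark replicates as circle, square and triangle for 1, 2 and 3. The nidogen ratio falls from -1.58 to -5.89 and the Lamb2 share from 18.2% to 7.19%, while the nearest Lama5 to Lamc1 ratios of the groups lie at 0.31 and 0.30.

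Hspg2 encodes the core protein of perlecan, which carries heparan sulphate chains. It read 64.2, 32.8 and 55.6 FPKM in Control and 101, 22.3 and 110 FPKM with TGF-β1. The replicate 2 libraries were the lowest of their group in both cases, and with TGF-β1 replicate 2 stood below all Control libraries while the other two stood above them. Over all 6 libraries the change was 0.36 ± 0.63 (SE, n = 3 per group) and was not called (limma adjusted p = 0.663). It became 0.81 without both replicate 2 libraries (limma adjusted p = 0.0103), 1.09 without TGF-β1 replicate 2 alone (limma adjusted p = 0.0306) and -0.04 without TGF-β1 replicate 3 (limma adjusted p = 0.969). Setting the replicate 2 libraries as a batch left it at 0.36 and not called (limma adjusted p = 0.338). The direction of Hspg2 therefore rests on which libraries are used.

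A check of replicate 2 for Hspg2 was set beforehand, with earlier results of these data known. The ranks given here and the fits without replicate 2 therefore describe its drop and do not test it. Against the other libraries of its group, Hspg2 in replicate 2 was lower by 0.84 on the log2 scale in Control, a deviation that 1.94% of tested rows went below. With TGF-β1 the deviation was -2.19, and 0.849% of rows went below it. Both replicate 2 libraries lay at least 1.5 times under the other 4 libraries in 186 tested rows (1.56%), against 73 rows (0.614%) for replicate 1 and 74 (0.622%) for replicate 3. With no minimum fold, these shares were 4.79% for replicate 2, 2.13% for replicate 1 and 2.89% for replicate 3. Hspg2 was the only gene of all lists used here among the 186. Of the other 5 genes over the filter, Lamb2 came nearest, with a deviation of -0.80 in TGF-β1 replicate 2 (4.27% of rows lower) but 0.09 in Control replicate 2.

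The 5 rows outside the lists whose pattern over the 6 libraries was most like that of Hspg2, by Pearson r on log2(FPKM + 1) among 6629 rows with a mean of at least 10 FPKM, were Tmem132a (0.999), Galk1 (0.997), Junb (0.995), Ier2 (0.993) and Sft2d1 (0.993). These points share their 6 libraries, and the rows were picked for the likeness. Junb, an immediate early transcription factor, showed the pattern most widely, at 36.9, 7.88 and 27.4 FPKM in Control and 125, 1.23 and 125 FPKM with TGF-β1. Across 10847 rows the deviation of replicate 2 had a Spearman correlation with GC content of 0.01 in Control and -0.39 with TGF-β1, and with transcript length of 0.12 and 0.13. Hspg2 has a GC content of 60.9% and a longest coding transcript of 14187 nt. The part of GC content and length in its values was not tested.

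**Figure D4:**
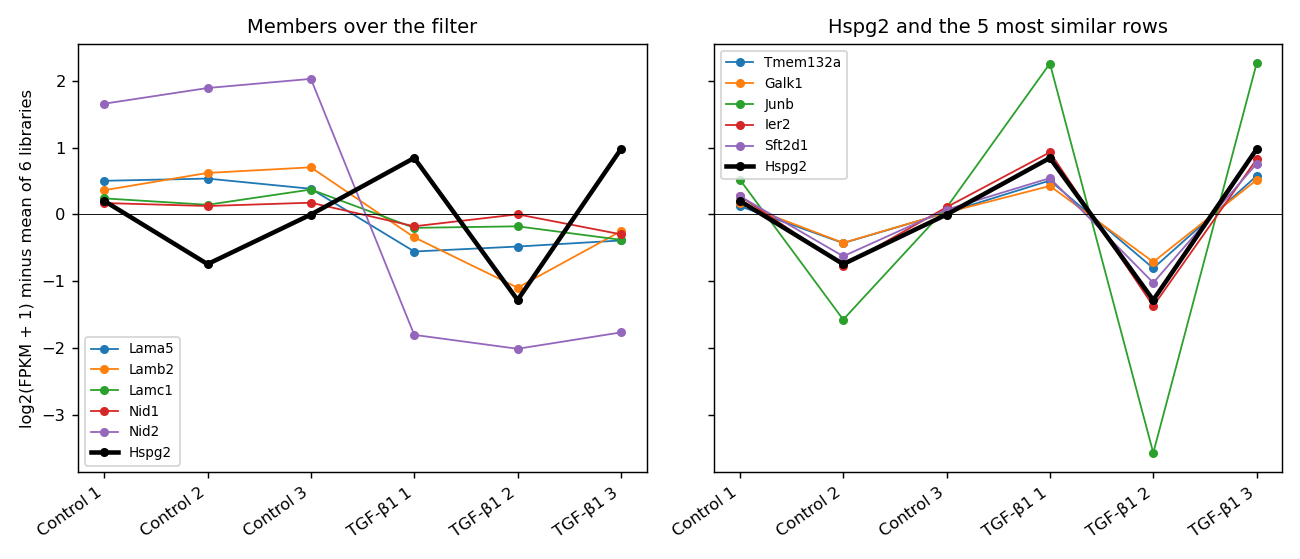
Difference of each library from the mean of all 6 on the log2(FPKM + 1) scale, for the 6 genes over the filter (left) and for Hspg2 with the 5 rows most like it (right); libraries are on the x axis and lines only join the values of a gene. Hspg2, in black, dips in replicate 2 of both groups, and none of the other 5 genes on the left does so in both.

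The order of levels changed with TGF-β1. In Control it ran Lama5, Lamc1, Lamb1, Nid1, Hspg2, Nid2, Lamb2 and then the 3 low alpha chains, and Lamc1 did not lie apart from Lamb1, nor did the 3 low alpha chains from each other. With TGF-β1 it ran Lamb1, Hspg2, Lama5, Lamc1, Nid1, Lamb2, Nid2 and the low chains, and the ranges of neighbours overlapped from Lamb1 down to Nid1. Lamb1, at 107 to 121 FPKM, overlapped only Hspg2, whose range of 22.3 to 110 FPKM includes its low replicate 2. The range of Lamb1 lay wholly above those of Lama5, Lamc1 and Nid1. Lama5, first by a clear margin in Control, overlapped the ranges of Lamc1 and Nid1 with TGF-β1, and Nid2 passed below Lamb2.

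The rest of the basement membrane moved in both directions. Of 22 other basement membrane genes, 17 were tested, 6 rose and 8 fell, with a median change of -0.12 against -0.02 over all tested rows. Of those rows, 24.5% were called higher and 23.6% lower. The collagen IV chains that form the widespread network fell, Col4a1 by 1.07 (limma adjusted p = 0.000193) and Col4a2 by 1.53 (limma adjusted p = 4.54e-05) on the log2 scale, and these 2 genes overlap each other on opposite strands. The chain genes Col4a3 and Col4a4 rose from low levels, 15.6-fold (3.51, limma adjusted p = 1.47e-05) and 8.54-fold (2.44, limma adjusted p = 1.12e-05). Col4a5 fell from a mean of 58.0 to 38.8 FPKM (-0.56, limma adjusted p = 0.00947). Col4a6 fell from a mean of 13.1 to 2.05 FPKM (-2.21, limma adjusted p = 3.08e-05). Npnt, the gene of the integrin ligand nephronectin, had the largest fall on the log2(FPKM + 1) scale (-2.88, limma adjusted p = 6.39e-06), an 8.90-fold lower mean, while the scarcer Fras1 fell 34.4-fold (limma adjusted p = 0.000231). Fbln2, the gene of fibulin 2, which binds laminins and nidogens, had the largest rise on that scale (3.53, limma adjusted p = 4.41e-06), from 74.8 to 86.0 FPKM to 905 to 972 FPKM, an 11.7-fold higher mean and thus below Col4a3 as a ratio. Agrn, the gene of the heparan sulphate proteoglycan agrin, read 59.3 to 69.5 FPKM in Control and 58.3 to 59.9 with TGF-β1 and was not called (limma adjusted p = 0.278).

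Among 11 genes listed with the laminin receptors, 9 were tested, 3 rose and 3 fell (median 0.21). Over all tested rows 24.5% were called higher and 23.6% lower. The list also holds sarcoglycan genes and the gene of utrophin, which are partners of dystroglycan and not laminin receptors. Sgce, a sarcoglycan gene, was among the 3 that fell (-0.42, limma adjusted p = 0.0186), a call held in 2 of 6 fits without 1 library. Itgb1, the common beta subunit of laminin-binding integrins, rose by 1.98 (limma adjusted p = 1.82e-05), from 248 to 266 FPKM to 1009 to 1041 FPKM. Of its alpha partners, Itga6 rose by 0.48 (limma adjusted p = 0.0306), a call held in only 2 of 6 fits without 1 library, and Itga3 had a change of 0.01 (limma adjusted p = 0.946). Itga7, the third such partner, rose 5.97-fold to a mean of 5.98 FPKM (1.81, limma adjusted p = 0.000196). Dag1, the gene of dystroglycan, fell from 38.8, 47.8 and 66.8 FPKM to 14.6, 13.9 and 14.0 FPKM (-1.75, limma adjusted p = 0.000653). Bcam, whose product binds the laminin alpha 5 chain, fell from 26.8, 21.9 and 22.9 FPKM to 2.41, 0.842 and 2.03 FPKM (-3.21, limma adjusted p = 0.000159), so it fell together with Lama5.

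Of 11 genes whose products put the laminin-binding sugar on dystroglycan, 9 were tested, 2 rose and 1 fell (median 0.12). With 24.5% of all tested rows called higher and 23.6% lower, these counts do not stand out. Large, which extends that sugar, fell by 0.69 on the log2 scale (limma adjusted p = 0.000971), and B3galnt2 rose by 0.72 (limma adjusted p = 0.00151). Of 19 genes of heparan sulphate chain synthesis and editing, 17 were tested, 9 rose and 1 fell (median 0.43). The largest rise was that of Glce, the epimerase of the chain (1.56, limma adjusted p = 0.000168). The single fall was Ext2, one of the chain polymerases (-0.29, limma adjusted p = 0.0327), and that call held in 1 of 6 fits without 1 library. Without both replicate 2 libraries 8 rose and 0 fell.

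Of 11 genes listed with the proteases that cut laminins, nidogens or perlecan, 9 were tested, 6 rose and 2 fell (median 1.20). The list also holds the plasminogen activator genes Plau, which rose, and Plat, which fell. Htra1, a serine protease, had the highest change on the log2(FPKM + 1) scale, from 14.0 to 19.9 FPKM to 74.8 to 85.0 FPKM (2.21, limma adjusted p = 7.66e-05). As ratios of means, Tll1 (12.0-fold) and Plau (5.77-fold) rose more than Htra1 (4.82-fold). Adamts1, a metalloprotease known to cut the nidogens, fell from 135, 144 and 163 FPKM to 8.71, 8.58 and 8.39 FPKM (-3.95, limma adjusted p = 3.82e-06), a 17.2-fold lower mean. These lists were described by counts only, against 24.5% of all tested rows higher and 23.6% lower.

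**Figure D5:**
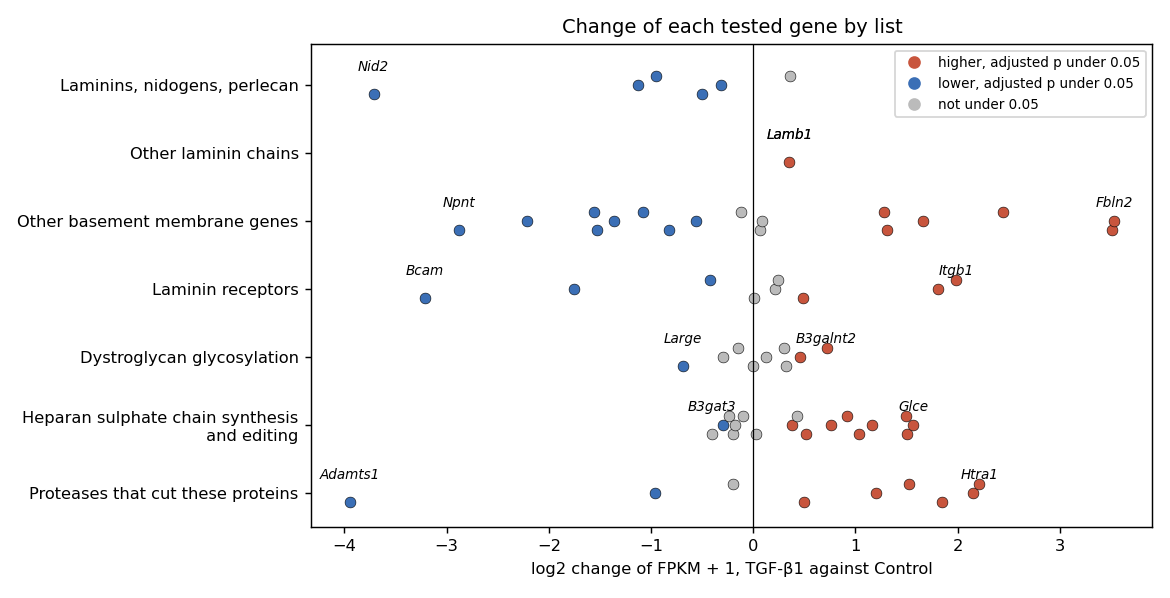
Change of every tested gene on the log2(FPKM + 1) scale, TGF-β1 against Control, by list; each point is a gene, red higher and blue lower at a limma adjusted p under 0.05, grey not under it, with the lowest and highest gene of most lists named. The top line holds 5 blue points and grey Hspg2, and the heparan sulphate and protease lines hold mostly red points, 9 of 17 and 6 of 9.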

How the data were processed

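Total RNA of the 3 Control and 3 TGF-β1 samples was sequenced on the Illumina platform. After dropping reads of low quality, the authors aligned the reads to mm9 with TopHat (TopHat2 2.0.11 in the submitters' processing notes). The deposited values are FPKM from Cufflinks for each library, and a scaling between libraries is not given in the sources used here. They tested counts with DESeq, which was not used here. The 19730 rows were matched by transcript identifier to the mm9 annotation GENCODE M1 (19699 found, 19555 with the same symbol).

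Changes were tested with limma 3.58.1 in R 4.3.3 (eBayes with trend) on log2(FPKM + 1). Two-sided p-values were adjusted by Benjamini-Hochberg over the 11898 rows whose mean FPKM reached 1. Genes under that filter came from the same test over all rows. Ratios, shares and sums were compared by exact permutation over libraries. The members, gene lists and tests were chosen with earlier results of these data known. Named genes were all 9 members, the other laminin chains, the called gene with the largest change in each direction of every other list, preset receptors and partners, and the 5 rows most like Hspg2. Beside these, Itga7, Sgce, Col4a3, Col4a4, Col4a5, Col4a6, Fras1, Tll1, Plau and Plat were named after their values were seen. So were the markers Krt18, Krt19, Cdh16, Pax8, Cldn2, Lrp2, Cd14, Csf1r, Cd68, Itgam, Lyz2, Gata3 and Cspg4. Other list genes enter only the counts, and some items are not reported here. In data simulated on the 11898 rows, 75.0% of 200 rows changed by 1 on the log2 scale were recovered and 5.66% of calls were false. Far fewer rows were changed there than the 48.1% called in the real data, so these rates need not hold for the real test.

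Depth was read from low FPKM values, which were whole multiples of 1 fragment in 99.5% to 99.9% of cases (tolerance 0.1, fragment length of 200 nt assumed) against 27.0% to 32.9% after jitter. In genes with 2 transcripts, 62.0% of 1572 low values were whole on the transcript named in the row and 91.6% on either, so a row was read as holding its gene's value. No count test was run. Python 3.11.15 with scipy 1.17.1 was used for the rest.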

Additional observations from a re-analysis of the deposited data

How the results depend on the processing

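The 16 alternatives changed the pseudocount, the filter, the scaling, the trend, the replicate block, the replicate 2 libraries or the set of libraries. Nid2, Lama5, Lamb2 and Lamc1 were called lower under all 16. The sum of alpha chains differed by -72.9 FPKM and that of Lamb2 plus Lamc1 by -45.6 FPKM with a common sum over all rows, and by -78.9 and -51.5 FPKM with a common sum over coding rows, against -65.0 and -38.5 FPKM as reported. The sum of Lamb1 plus Lamb2, against 14.0 FPKM as reported, was 5.31 FPKM and -1.46 FPKM under these scalings, and the scaling alone thus sets its sign. Leaving out each library, Hspg2 ran from -0.037 (without TGF-β1 replicate 3) to 1.09 (without TGF-β1 replicate 2). The scalings shifted the median change of tested rows to -0.11 and -0.19 from -0.02. Over the tested rows, 2911 were higher and 2810 lower as reported, 2873 and 3153 without the filter, 2296 and 3315 with the common sum over all rows, and 2014 and 3956 with that over coding rows, a scaling chosen after seeing the data.

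Counts of calls moved as follows. Members called higher were 1 (Hspg2) with replicates 1 and 3 only, and 0 to 1 leaving out each library. Other laminin chains called higher, 1 as reported (Lamb1), were 0 with either common sum and with replicates 1 and 3 only, and 0 to 1 leaving out each library. Of the dystroglycan glycosylation genes, 2 were lower with either common sum, 1 was higher with either common sum, without the filter, with the replicate block and with replicates 1 and 3 only, and 1 to 2 were lower and 1 to 2 higher leaving out each library. Of the heparan sulphate genes, 2 were lower with the common sum over all rows or with replicate 2 as a batch term, 3 with that over coding rows, 0 with the replicate block or replicates 1 and 3 only, and 0 to 2 leaving out each library.

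Replicates with the same number were not treated as pairs. Their deviations from the group means correlated at 0.09, 0.23 and 0.09. Control replicate 1 correlated best with TGF-β1 replicate 3 (0.12), but all other combinations of unlike numbers were negative, from -0.19 to -0.02. With the number as a replicate block, 5391 of 11898 rows were called against 5721, and Nid1 (limma adjusted p = 0.0626) and Lama1 (limma adjusted p = 0.0780) were no longer called. The 3 low alpha chain genes rest on at most 18 fragments in a library, which limits any comparison of them, and exact tests of 3 against 3 cannot go below p = 0.1.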
